A study of Homo sapiens with 8 samples.

Results

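The 10 genes described here encode the enzymes that add and remove O-GlcNAc, a sugar carried by intracellular proteins, and those that make, salvage or return its precursors. They were chosen by symbol from the 16796 genes of the count files, where each of the 10 has a row under its current symbol. RNA sequencing was performed on LX-2 cells, a human cell line of activated hepatic stellate cells used as a model of liver myofibroblasts. Cells in DMEM with 5% serum received the vehicle DMSO (Control, n = 4 libraries) or 50 µM OSMI-1, a small-molecule inhibitor of O-GlcNAc transferase (OGTi, n = 4 libraries), for 24 h, and the labels give no genetic change in either group. The study's methods describe 4 independent experiments, with a Control and an OGTi sample in each. LX-2 is a single immortalized line, and 1 dose and 1 time were measured, so the values describe these cells under this exposure. The comparison asked how inhibition of the transferase changes the expression programme of these cells, and it is read here for the enzymes that build and turn over the modification.

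O-GlcNAc cycling rests on a pair of enzymes with opposite action. OGT transfers N-acetylglucosamine from UDP-GlcNAc to serine and threonine residues of nuclear and cytosolic proteins, and OGA takes it off. The donor UDP-GlcNAc is made by the hexosamine pathway, which draws on glucose, glutamine, acetyl-CoA and UTP and begins with the rate-limiting amidotransferases GFPT1 and GFPT2. GNPNAT1, PGM3 and UAP1 catalyse the next steps in this order. NAGK lets the cell reuse free N-acetylglucosamine, and the deaminases GNPDA1 and GNPDA2 lead glucosamine phosphate back to fructose phosphate and so oppose GFPT1 and GFPT2. Activated stellate cells are known for making the collagens of liver scars.

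The libraries held 24166756 to 28201215 counts, and 12829 to 13180 genes reached 10 counts per library. Of 17 stellate cell and myofibroblast markers, 13 had at least 10 counts in every library, among them COL1A1, COL1A2, PDGFRB, TAGLN and VIM, while DES, LRAT, GFAP and HAND2 had means under 10. The summed normalized count of this list was 247446 to 285899 in Control and 183029 to 218696 in OGTi libraries. Of the 13, TIMP1 alone had a higher mean in OGTi (17868) than in Control libraries (12613). The mean went from 84778 in Control to 43931 in OGTi libraries for COL1A1, from 5102 to 884 for COL3A1, and from 95086 to 89632 for VIM. No row was present for the hepatocyte genes ALB, APOB, TTR and CYP3A4, and the hepatocyte list summed to 47.1 to 104 normalized counts in Control and 184 to 297 in OGTi libraries. Within it, the mean of CYP2E1 was 41.4 in Control and 199.8 in OGTi libraries, and that of SERPINA1 46.8 and 44.05. The sums were 49.7 to 91.1 and 17.0 to 33.8 for endothelial genes, and 681 to 1151 and 955 to 1273 for cholangiocyte genes, of which KRT19 had a mean under 10. The means in Control and OGTi libraries were 37.3 and 3.86 for CDH5 in the endothelial list, and 110.6 and 53.8 for KRT7 and 834 and 1045 for SOX9 in the cholangiocyte list. Macrophage and leukocyte genes summed to 2482 to 4089 in Control and 5610 to 9391 in OGTi libraries, nearly all of it from CD68, whereas PTPRC and CSF1R had means under 10. The part of these shifts in the results was not tested. In RNA from whole cultures, less RNA of a gene per cell and fewer cells that express it cannot be told apart.

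The promoters of 4 members are shown for their changes and because their windows held matches to a set of known promoter motifs. OGT and OGA fell, GFPT2 rose most, and GNPDA1 rose by nearly the same factor in each pair of the same replicate number. Each sequence is the 250 bases before the transcription start, on the strand of the gene, from RefSeq on GRCh38.p14, with motif matches in capitals. The last bases of the OGT, OGA and GNPDA1 sequences lie within the gene as GENCODE annotates it. OGA and GNPDA1 are on the minus strand, as is GFPT2, and OGT is on the plus strand.
OGT (chrX:71532854-71533103): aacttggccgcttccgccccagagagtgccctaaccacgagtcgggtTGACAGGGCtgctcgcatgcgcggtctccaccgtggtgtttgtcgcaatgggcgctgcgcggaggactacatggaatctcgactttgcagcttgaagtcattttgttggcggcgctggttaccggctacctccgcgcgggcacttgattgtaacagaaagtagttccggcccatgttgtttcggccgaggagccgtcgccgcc
OGA (chr10:101818445-101818694): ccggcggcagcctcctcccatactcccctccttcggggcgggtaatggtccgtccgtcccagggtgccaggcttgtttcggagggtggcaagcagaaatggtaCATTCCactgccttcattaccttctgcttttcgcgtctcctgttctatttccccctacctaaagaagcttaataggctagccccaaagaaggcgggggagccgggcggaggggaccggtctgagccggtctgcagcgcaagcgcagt
GFPT2 (chr5:180353337-180353586): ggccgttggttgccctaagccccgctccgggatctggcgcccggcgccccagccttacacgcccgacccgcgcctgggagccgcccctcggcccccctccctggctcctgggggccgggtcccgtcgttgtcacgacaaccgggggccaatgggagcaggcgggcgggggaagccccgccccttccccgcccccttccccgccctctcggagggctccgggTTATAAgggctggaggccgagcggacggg
GNPDA1 (chr5:142013028-142013277): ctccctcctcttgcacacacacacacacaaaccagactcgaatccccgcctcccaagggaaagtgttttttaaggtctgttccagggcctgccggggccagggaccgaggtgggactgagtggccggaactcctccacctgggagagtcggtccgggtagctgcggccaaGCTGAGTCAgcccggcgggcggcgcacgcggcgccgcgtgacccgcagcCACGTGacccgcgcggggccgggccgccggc
In the OGT window the capitals mark TGACAGGGC, a match to the antioxidant response element core TGACNNNGC, at -203 to -195 from the start. In the OGA window they mark CATTCC, which is the TEAD motif GGAATG on the other strand, at -147 to -142. In the GFPT2 window they mark the overlapping matches TTATA and TATAA to the TATA box core TATAA on both strands, at -29 to -24. In the GNPDA1 window they mark GCTGAGTCA, an antioxidant response element core on the other strand at -80 to -72, and the E-box CACGTG at -31 to -26.

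Searched on both strands over the 300 bases from 250 before to 50 after the start, the antioxidant response element core was found in 13.3% of 35116 RefSeq promoter windows, the TEAD motif in 14.0%, the E-box in 7.26% and the TATA box core in 20.4%. All 10 members matched RefSeq windows, 14 windows in all, of which UAP1 had 3 and PGM3 and NAGK 2 each. Beside the matches above, a TEAD motif lay at 17 to 22 counted from the first transcribed base of the second PGM3 window. The C/EBP-ATF response element TGATGNAA (3.62% of all windows) and the ER stress response element (0.0769%), had no match in the 14 windows. The GC content of the 250 bases ranged from 58% in the first NAGK window to 80.8% for GNPNAT1 over the 14 windows, and was 60.8% for OGT and for OGA, 69.6% for GNPDA1 and 76.8% for GFPT2. The median over all windows was 58%. These matches describe the sequences, and binding was not measured in these libraries.

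Across the pathway, OGA and OGT fell, GFPT2, NAGK, GNPDA1, GNPDA2 and PGM3 rose, and GFPT1, GNPNAT1 and UAP1 did not pass the test. Each gene was tested with DESeq2 with the replicate number as a block, and it was called when its p-value adjusted over all genes by the Benjamini-Hochberg method (q) was 0.05 or lower. By this rule 7 of the 10 enzymes were called, and so were 46.6% of all 14028 genes that had a q. The 7 comprised 5 higher (22.7% of all genes were) and 2 lower (24% of all genes were). The groups did not overlap for 6 members, 4 higher and 2 lower, and they did not overlap for 40% of all genes, 19.8% higher and 20.2% lower. The median log2 fold change was 0.17 over the 10 members and 0.00 over all genes with a q, and the median absolute value was 0.41 and 0.31. All 10 members had a q. With so many genes called in these cells, the count of called enzymes is given as a description, and the sizes of the single changes follow.

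**Figure D1:**
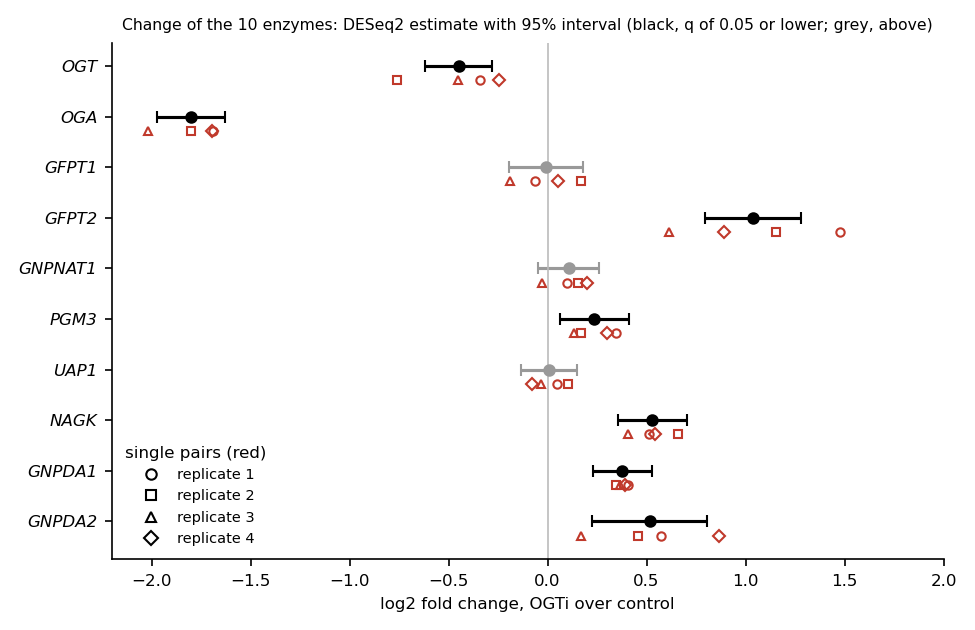
Log2 fold change of OGTi over Control (x axis) for each enzyme (y axis). Filled points and bars are the DESeq2 estimate and its 95% interval, black at a q of 0.05 or lower and grey above, and open red symbols below each bar are the 4 single pairs. OGT and OGA lie left of 0, the intervals of GFPT1, GNPNAT1 and UAP1 cross 0, and the pairs of GNPDA1 span 0.06.

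OGT and OGA both fell in OGTi cells, OGA by far more. OGT lies at chrX:71533087-71575892 on GRCh38. Its normalized count, which is the count divided by the library's size factor, was 5351, 5977, 5655 and 5561 in Control replicates 1 to 4 and 4217, 3534, 4138 and 4695 in OGTi replicates 1 to 4. Every OGTi library lay below every Control library. The mean went from 5636 ± 260.5 to 4146 ± 477 (SD, n = 4 each), 0.733 of the Control level with a 95% interval of 0.651 to 0.825 from the model. The estimate was a log2 fold change of -0.45 ± 0.09 (SE, DESeq2 q of 1.48e-06). The single pairs gave log2 changes of -0.34, -0.76, -0.45 and -0.24, so that replicate 2 moved most and replicate 4 least.

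OGA (chr10:101784443-101818465) showed the largest change of the 10 enzymes. Its normalized count was 2572, 3242, 3580 and 3244 in Control and 799, 931, 883 and 1002 in OGTi replicates 1 to 4. The highest OGTi library was far below the lowest Control library. The mean went from 3159 ± 423 to 904 ± 85.3 (SD, n = 4 each), 0.287 of the Control level with a 95% interval of 0.255 to 0.323. The log2 fold change was -1.80 ± 0.09 (SE, DESeq2 q of 1.69e-92), and the pairs gave -1.69, -1.80, -2.02 and -1.70. Among the 14028 genes with a q, 234 (1.67%) had a log2 fold change at or below that of OGA, and 172 of these were called.

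**Figure D2:**
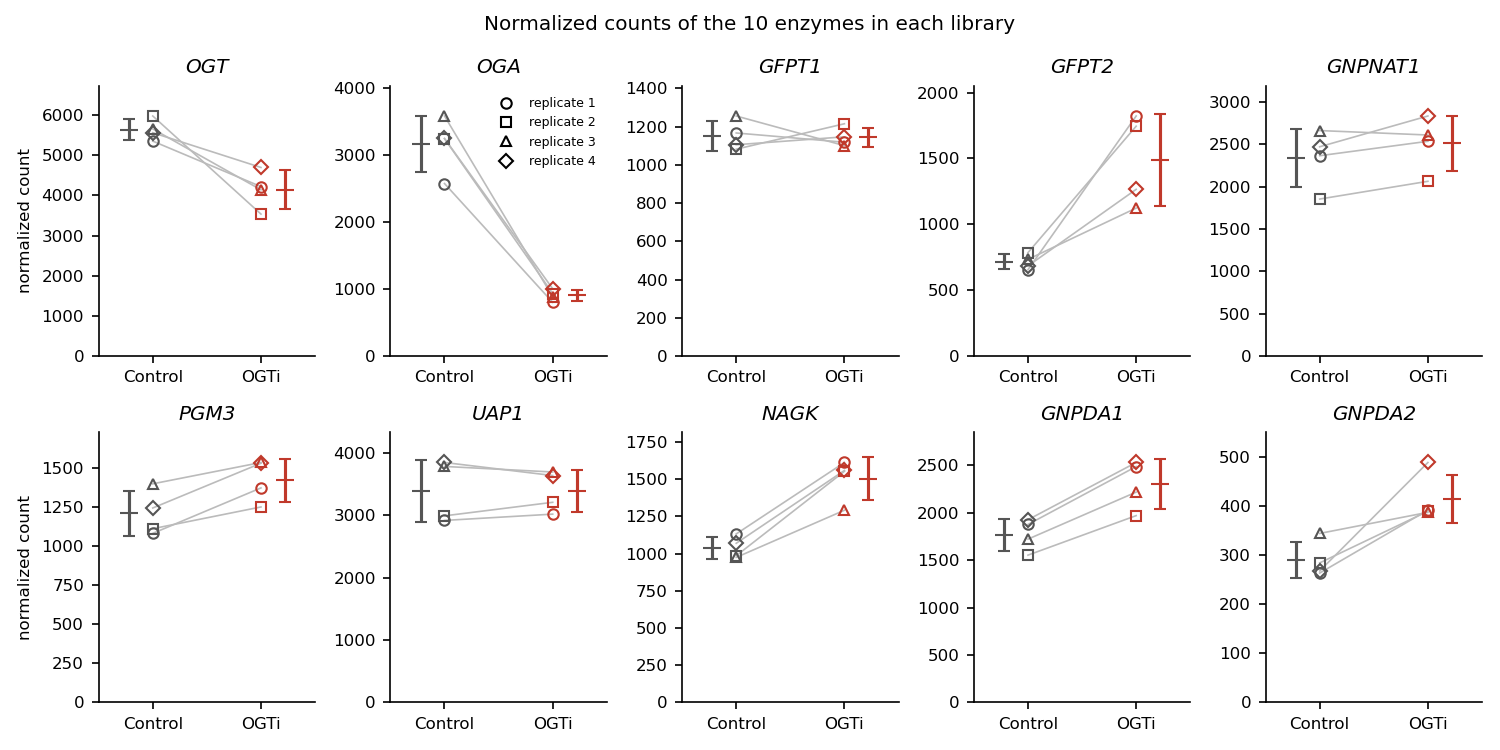
Normalized count (y axis, from 0, a separate scale in each panel) of the 10 enzymes in Control (grey) and OGTi (red) libraries. Symbols are single libraries by replicate number, grey lines join libraries of the same number, and bars show mean ± SD (n = 4). OGA lay at 2572 to 3580 in Control and 799 to 1002 in OGTi libraries, and GFPT2 at 655 to 784 and 1123 to 1822.

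OGT and OGA have opposite action, and their ratio within each library was compared, which needs no scaling for depth. The ratio rests on the same counts as the changes above, so its test is no separate evidence for them. The library held 2.08, 1.84, 1.58 and 1.71 OGT counts per OGA count in Control replicates 1 to 4 and 5.28, 3.80, 4.69 and 4.69 in OGTi replicates 1 to 4. The ratio was above 3 in every OGTi library and near or below 2 in every Control library. It went from 1.80 ± 0.213 to 4.61 ± 0.613 (SD, n = 4 each), a log2 difference of 1.35, or 2.55-fold, seen in 4 of 4 pairs. The two-sided exact permutation p was 0.0286, the smallest that 4 against 4 libraries allow, and 0.0429 after Benjamini-Hochberg adjustment over the 3 ratios tested. This test does not use the pairing. An exact sign-flip test over the 4 pairs gave a p of 0.125, which is the smallest that 4 pairs allow, so a paired test cannot pass a threshold of 0.05 here. These are ratios of counts, and the transcripts differ in length.

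**Figure D3:**
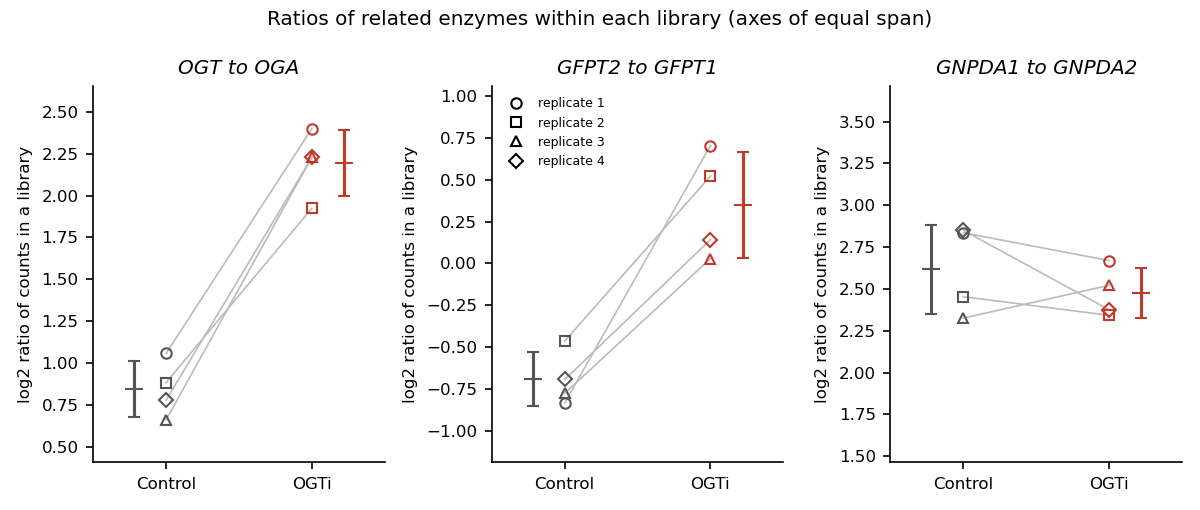
Log2 ratio of the counts of related enzymes within a library (y axes of equal span) in Control (grey) and OGTi (red) libraries. Symbols are single libraries by replicate number, lines join libraries of the same number, and bars show mean ± SD (n = 4). The groups do not overlap for OGT to OGA and for GFPT2 to GFPT1, and they overlap for GNPDA1 to GNPDA2.

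Of the enzymes that make UDP-GlcNAc, GFPT2 rose 2.05-fold, PGM3 rose slightly, and GFPT1, GNPNAT1 and UAP1 did not pass the test. GFPT2 (chr5:180300698-180353336), an amidotransferase of the first step, had 655, 784, 733 and 683 normalized counts in Control and 1822, 1745, 1123 and 1265 in OGTi replicates 1 to 4. All OGTi libraries were above all Control libraries, with replicates 1 and 2 well above replicates 3 and 4. The mean went from 714 ± 57.1 to 1489 ± 347 (SD, n = 4 each), 2.05-fold with a 95% interval of 1.73 to 2.43, and the log2 fold change was 1.04 ± 0.12 (SE, DESeq2 q of 1.19e-15). The pairs gave 1.48, 1.15, 0.61 and 0.89, and the coefficient of variation was 8.0% in Control and 23.3% in OGTi libraries. A rise at least this large was found in 774 genes, 5.52% of those with a q.

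GFPT1 (chr2:69319780-69387250), the other amidotransferase of the first step, had 1167, 1082, 1256 and 1106 normalized counts in Control and 1119, 1215, 1101 and 1147 in OGTi replicates 1 to 4. The groups overlapped throughout, and 2 pairs were higher and 2 lower. The means were 1153 ± 77.6 and 1145 ± 50.4 (SD, n = 4 each), and the log2 fold change was -0.01 ± 0.10 (SE, DESeq2 q of 0.958), with a 95% interval of the fold of 0.874 to 1.13. Within the library the count of GFPT2 over that of GFPT1 went from 0.561, 0.725, 0.584 and 0.618 in Control to 1.63, 1.44, 1.02 and 1.10 in OGTi replicates 1 to 4. GFPT1 counts were thus the higher in all Control libraries and GFPT2 counts in all OGTi libraries. The difference in the log2 ratio was 1.04, or 2.06-fold, in 4 of 4 pairs (two-sided exact permutation p of 0.0286, 0.0429 adjusted over the 3 ratios, and 0.125 in the exact sign-flip test over the pairs, again the smallest possible). Per length of the canonical transcript, GFPT2 was the more abundant in both groups. It made up 63.8% ± 2.57 of the GFPT1 and GFPT2 sum in Control and 78.3% ± 3.70 in OGTi libraries (SD, n = 4 each). The share depends on the length used. With the union of all annotated exons, mean Control levels were 151 for GFPT2 and 130 for GFPT1 per kilobase.

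Of the 3 enzymes of the following steps, PGM3 alone passed the test. PGM3 (chr6:83147324-83193936), which isomerises N-acetylglucosamine phosphate, had 1082, 1112, 1399.7 and 1245 normalized counts in Control and 1374, 1252, 1536 and 1532 in OGTi replicates 1 to 4. The groups overlapped, and each OGTi library was above the Control library of its number. PGM3 had a log2 fold change of 0.24 ± 0.09 (SE, DESeq2 q of 0.0179), 1.18-fold with a 95% interval of 1.05 to 1.33. PGM3 did not pass the test without the replicate block (DESeq2 q of 0.0701), or without replicate 1 (q of 0.101), 2 (q of 0.0565) or 4 (q of 0.133). DOP1A and RWDD2A overlap PGM3 on the opposite strand, and the libraries were stranded and counted with regard to strand.

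GNPNAT1 (chr14:52775193-52791668), the acetyltransferase of the second step, had 2365, 1853, 2663 and 2471 normalized counts in Control and 2536, 2063, 2610 and 2835 in OGTi replicates 1 to 4. Replicate 2 was the lowest in both groups, and 3 of 4 pairs were higher in OGTi. The estimated log2 fold change was 0.11 ± 0.08 (SE, DESeq2 q of 0.271), with a 95% interval of the fold of 0.968 to 1.20. UAP1 (chr1:162561722-162601240), which joins the sugar phosphate to UTP to give UDP-GlcNAc, had 2916, 2989, 3781 and 3844 normalized counts in Control and 3017, 3206, 3692 and 3635 in OGTi replicates 1 to 4. Replicates 3 and 4 were above replicates 1 and 2 in both groups, and the groups overlapped. The log2 fold change was 0.01 ± 0.07 (SE, DESeq2 q of 0.939), with a 95% interval of the fold of 0.912 to 1.11. UAP1 is also overlapped by a long non-coding RNA gene on the same strand, whose part in the counts was not tested.

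The salvage kinase and both deaminases rose. NAGK (chr2:71064344-71079808), which phosphorylates free N-acetylglucosamine, had 1132, 985, 975 and 1069 normalized counts in Control and 1612, 1553, 1291 and 1559 in OGTi replicates 1 to 4. Every OGTi library was above every Control library. The mean went from 1040.3 ± 74.4 to 1504 ± 144 (SD, n = 4 each), 1.44-fold with a 95% interval of 1.28 to 1.63, and the log2 fold change was 0.53 ± 0.09 (SE, DESeq2 q of 2.07e-08). Of the 50-base words of its canonical transcript, 7.15% also occur in transcripts of other genes, against less than 1% in each of the other 9 members.

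GNPDA1 (chr5:141991749-142013041), a deaminase that turns glucosamine phosphate into fructose phosphate, had 1877, 1554, 1723 and 1927 normalized counts in Control and 2488, 1971, 2219 and 2531 in OGTi replicates 1 to 4. The lowest OGTi library was just above the highest Control library, and the replicates kept the same order in both groups. Paired by replicate number, the log2 changes were 0.41, 0.34, 0.37 and 0.39, a range of 0.06. This range rests on the pairing. Over 10994 genes, deviations from the group means correlated more between Control 3 and OGTi 4 (0.343) than between Control 3 and OGTi 3 (0.165). The log2 fold change was 0.38 ± 0.08 (SE, DESeq2 q of 3.96e-06), 1.299-fold with a 95% interval of 1.17 to 1.44.

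GNPDA2 (chr4:44682200-44726588), the second deaminase, was the member with the fewest counts. It had 263, 284, 344 and 267 normalized counts in Control and 391, 389, 386 and 488 in OGTi replicates 1 to 4. The groups did not overlap, and OGTi replicate 4 stood above the other OGTi libraries. The log2 fold change was 0.52 ± 0.15 (SE, DESeq2 q of 0.00175), 1.43-fold with a 95% interval of 1.17 to 1.75, and the pairs ranged from 0.17 in replicate 3 to 0.87 in replicate 4. Without replicate 4 the log2 fold change was 0.40 and GNPDA2 did not pass the test (DESeq2 q of 0.0715). GUF1 overlaps GNPDA2 on the opposite strand. An annotated long non-coding RNA gene overlaps GNPDA2 on the same strand, and its part in the counts was not tested.

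Within the library, the count of GNPDA1 over that of GNPDA2 was 7.14, 5.48, 5.01 and 7.21 in Control and 6.36, 5.07, 5.74 and 5.19 in OGTi replicates 1 to 4. The groups overlapped. The log2 difference was -0.14, with pairs from -0.47 to 0.20 and lower in 3 of 4 pairs (two-sided exact permutation p of 0.4, also 0.4 after adjustment over the 3 ratios). A difference between the changes of the deaminases was therefore not detected, within the spread of these pairs. Per length of the canonical transcript, GNPDA2 made up 14.3% ± 2.27 of the sum of both deaminases in Control and 15.4% ± 1.34 in OGTi libraries (SD, n = 4 each). This share also depends on the length used. With the union of all annotated exons, mean Control levels were 40.1 for GNPDA2 and 447 for GNPDA1 per kilobase.

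Levels were compared between genes as normalized counts per kilobase of the Ensembl canonical transcript, as a description. In Control libraries OGT was highest with 1037 ± 47.9 per kilobase, followed by UAP1 with 950.4 ± 140, and the order of this pair held in 2 of 4 libraries (SD, n = 4 each). GNPDA1 came next with 781 ± 74.4 per kilobase, below UAP1 in 3 of 4 libraries. OGA with 611 ± 81.7 and GNPNAT1 with 605 ± 89.4 were again not separated, with OGA above GNPNAT1 in 2 of 4 libraries. NAGK reached 439 ± 31.4, GFPT2 235 ± 18.8 and PGM3 199 ± 23.8 per kilobase, and this order held in all 4 libraries. GFPT1 with 133 ± 8.96 and GNPDA2 with 129 ± 16.6 were lowest and not separated from each other.

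In OGTi libraries the order was changed at both ends. GNPDA1 with 1016 ± 115 and UAP1 with 952 ± 92.4 per kilobase were highest, in either order over the 4 libraries, and both lay above OGT with 763 ± 87.7 in every library. GNPNAT1 with 649 ± 83.9 and NAGK with 634 ± 60.8 per kilobase were not separated. GFPT2 with 491 ± 114 and PGM3 with 234 ± 22.6 came next, followed by GNPDA2 with 185 ± 22.2. OGA, the fourth in Control libraries, was the ninth with 175 ± 16.5 per kilobase, below GNPDA2 in 3 of 4 libraries and above GFPT1 with 132 ± 5.81 in all 4. The order depends on the length used. With the union of all annotated exons, UAP1 and GNPNAT1 preceded OGT in Control libraries, and NAGK and PGM3 moved below GFPT1. The order in OGTi libraries was not computed with these lengths, so its changes are given for canonical transcripts only.

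**Figure D4:**
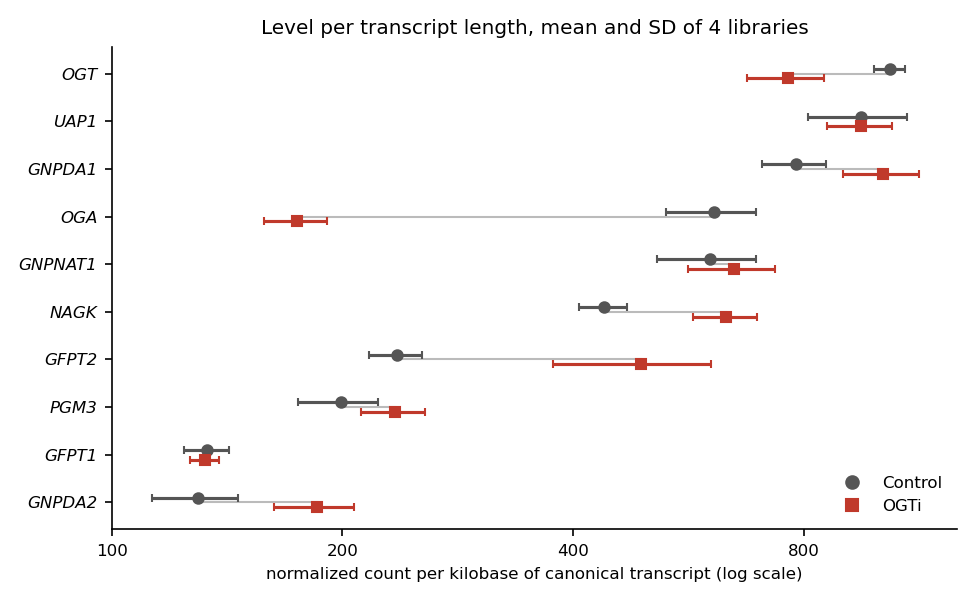
Normalized count per kilobase of canonical transcript (x axis, log scale) of the 10 enzymes (y axis, in the order of Control levels) in Control (grey circles) and OGTi (red squares) libraries, as mean ± SD (n = 4). OGA moved from 611 to 175 and GFPT2 from 235 to 491 per kilobase.

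The genes most like OGT and OGA were sought by the root mean square difference between the log2 changes of the 4 pairs. The search covered 10934 other genes that averaged 100 or more normalized counts. Genes whose symbol is a bare number or a LOC identifier were left out. Closest to OGT were TRA2A, a splicing regulator, with a difference of 0.0739, ZBTB26, a zinc finger protein, with 0.0781, and GATAD2B, a subunit of a chromatin remodelling complex, with 0.0795. Each of the 3 was lowest in pair 2, with log2 changes of -0.66, -0.64 and -0.66, and least changed in pair 4. Their log2 fold changes were -0.41 ± 0.11 (DESeq2 q of 0.000600), -0.38 ± 0.17 (DESeq2 q of 0.0563, not called) and -0.42 ± 0.10 (DESeq2 q of 0.000111). Closest to OGA were EPB41L4B, a membrane skeleton protein, with 0.0912, GAREM2, a signalling adaptor, with 0.145, and the chemokine CXCL12 with 0.146. Their log2 fold changes were -1.74 ± 0.17, -1.68 ± 0.13 and -1.85 ± 0.10 (SE, DESeq2 q of 1.51e-23, 4.85e-34 and 4.43e-75). All libraries entered the choice of these genes, so the likeness is a description.

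Around the 10 enzymes, 4 lists of related genes were read from the same fit, with up to 3 genes of the largest Wald statistic named in each and others named after their values were seen, to account for a count. Over all genes with a q, 22.7% were called higher and 24% lower, and the median log2 fold change was 0.00. Of 15 enzymes of amino sugar and sialic acid metabolism, 6 rose, 1 fell and 8 did not pass the test, and the median log2 fold change was 0.20. NANS, the sialic acid synthase, rose from 2539.9 ± 163 to 4365 ± 511 normalized counts (SD, n = 4 each), or by 0.78 ± 0.08 on the log2 scale (SE, DESeq2 q of 3.73e-21). Among the others that rose were AMDHD2, the deacetylase that feeds the deaminases (0.73), HEXDC (0.37), and NPL, which breaks sialic acid down and had only 5.75 to 17.8 normalized counts in Control and 54.2 to 79.1 in OGTi libraries. The gene that fell was EOGT, the O-GlcNAc transferase of the endoplasmic reticulum, with -0.26 ± 0.11 (SE, DESeq2 q of 0.0352). It was the only call in that direction, and no gene of the list was called lower without replicate 2, 3 or 4 or without the replicate block.

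Of 9 nucleotide sugar transporters, 8 had a q, with 2 higher, 2 lower, 4 not past the test and a median log2 fold change of 0.06. SLC35A1, the CMP-sialic acid transporter, rose by 0.48 ± 0.13 on the log2 scale (DESeq2 q of 0.000849), and SLC35A2, the UDP-galactose transporter, by 0.28. SLC35A4 had a log2 fold change of -0.26 ± 0.07 (SE, DESeq2 q of 0.000560) and SLC35D2 of -0.38 ± 0.12 (DESeq2 q of 0.00604). SLC35D3 had no q. The list had 1 gene called lower without replicate 1 and 1 called higher without replicate 3.

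Of 11 genes that supply glucose and glutamine, 10 had a q and all of these were called, 8 higher and 2 lower, with a median log2 fold change of 0.41. The glucose transporter SLC2A1 rose from 2678 ± 101 to 4839 ± 261 normalized counts (SD, n = 4 each), or by 0.85 ± 0.07 on the log2 scale (SE, DESeq2 q of 6.98e-31). The glutamine transporter SLC1A5 rose from 11478 ± 987 to 19451 ± 2549, or by 0.76 ± 0.07 (log2, SE, DESeq2 q of 6.70e-25). The glutamine transporter SLC38A2 went from 19295 ± 2538 down to 12334 ± 1827 (log2 fold change -0.65 ± 0.08, SE, DESeq2 q of 2.51e-14), and the hexokinase HK1 had -0.19 ± 0.07 (DESeq2 q of 0.0124). The glutaminase gene GLS2 had no q. The genes called higher numbered 7 without replicate 1, 6 without replicate 2 and 7 without replicate 4, and 1 gene was called lower without replicate 2, 3 or 4.

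Of 10 genes that supply acetyl-CoA and UTP or, as CTPS1 does, use UTP, 2 rose, 3 fell and 5 did not pass the test. The median log2 fold change of this list was -0.12. ACLY and ACSS2, which make acetyl-CoA from citrate and from acetate, rose by 0.46 ± 0.07 (DESeq2 q of 1.76e-10) and 0.66 ± 0.09 (DESeq2 q of 1.43e-12) on the log2 scale. CTPS1, which turns UTP into CTP, had a log2 fold change of -0.63 ± 0.08 (SE, DESeq2 q of 6.77e-14). The nucleotide kinases CMPK1 and NME1 had -0.47 and -0.48. NME2, a close paralog of NME1, had -0.10 and did not pass the test, and read sharing between these paralogs was not tested, so both values are uncertain.

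**Figure D5:**
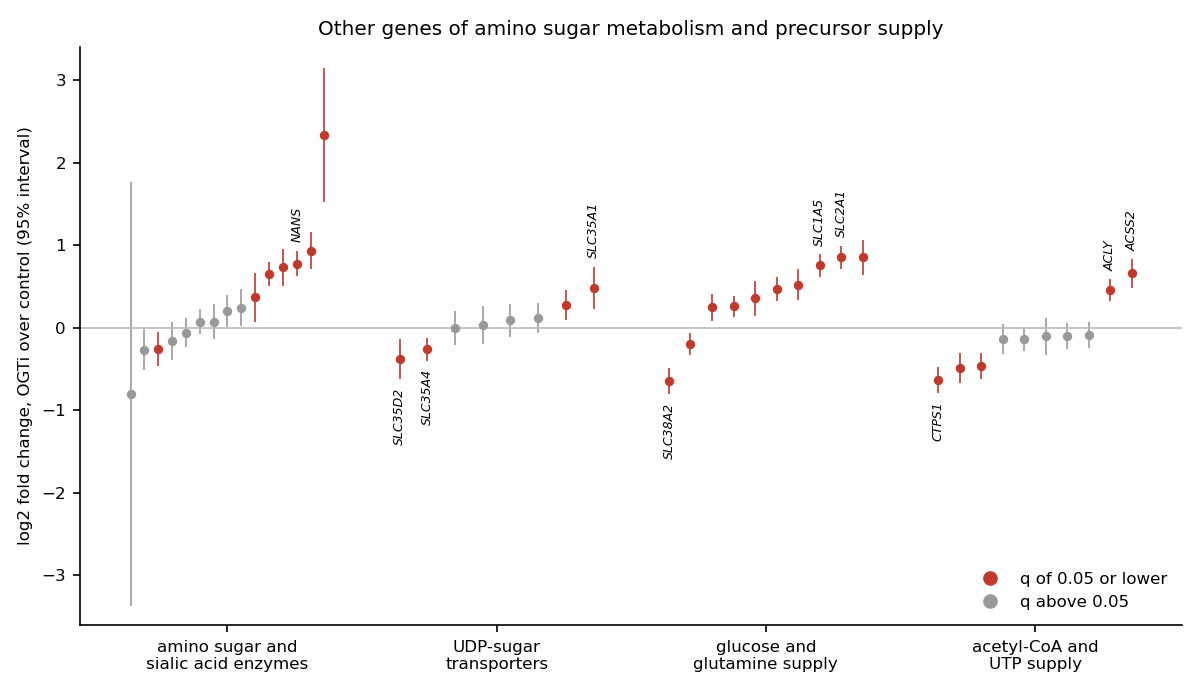
Log2 change between OGTi and Control with 95% intervals (y axis) for the genes of the 4 related lists that had a q, ordered by value within each list (x axis). Red points passed a q of 0.05, grey points did not, and names mark the genes of the largest Wald statistic, 1 in the amino sugar list and 3 in each of the others. In the glucose and glutamine list 8 of 10 genes were called higher, and in the acetyl-CoA and UTP list 2 of 10. Over all genes with a q, 22.7% were called higher.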

How the data were processed

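RNA from 4 Control and 4 OGTi cultures of LX-2 cells was sequenced from both ends after oligo-dT enrichment with a stranded protocol. The authors aligned reads to hg38 with Bowtie2 2.3.5.1 and estimated counts per gene with RSEM 1.3.1, and they deposited these expected counts, which share reads with several alignments between genes and are not scaled for depth. The deposited comparison table (base mean, log2 fold change, its standard error, Wald statistic, p and adjusted p from DESeq2 1.36.0) holds the authors' own results and was not used. Per library, 12.9% to 16.3% of genes had fractional values. The 8 libraries held 24166756 to 28201215 counts.

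Counts were rounded, genes with a total under 10 were removed, and DESeq2 1.42.0 (R 4.3.3, median-of-ratios size factors, Wald statistic) was fitted to the 14895 genes left. As in the study's methods, replicate number entered as a block. A gene was called at a Benjamini-Hochberg q of 0.05 or lower. The pairing by number comes from these methods. Deviations from the group means (10994 genes) correlated by 0.372, 0.391, 0.165 and 0.327 between libraries of numbers 1 to 4, and Control 3 was closer to OGTi 4 (0.343). Libraries of the same group differed well beyond counting noise (chi-square over its degrees of freedom, 8.38 to 34.7), so none was a copy. Intervals are 95% intervals of the Wald estimate. Ratios within libraries were compared with exact permutation tests in scipy 1.17.1. Alternatives were edgeR 4.0.16, TMM factors, no block, other filters on low counts, union exon lengths and leaving out each replicate number.

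By rule, the 10 members and the 3 genes most like each of OGT and OGA were named. The rule also took the 3 of each list with the largest absolute Wald statistic (averaging 100 or more normalized counts). Other genes of the lists were named after their values were seen. The members and lists were chosen with earlier results of these data known. Positions and transcript lengths are from GENCODE 44, and promoters from RefSeq GRCh38.p14. The labels name no sequencing batch, and 1 Control label spells the vehicle DSMO. Protein sequences were not used here, and 2 genes that the naming rule takes from the amino sugar list are not reported here.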

Additional observations from a re-analysis of the deposited data

Results flagged for a closer look

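In 52 groups of 4 libraries, made of the counts of the members, their 3 ratios, the genes that the naming rule takes from the related lists and the library totals, the highest and the lowest library were compared with their nearest neighbours. In 3 groups the gap exceeded Dixon's 95% critical value, and 2.6 are given by chance at 1 in 20. For GNPDA2, OGTi replicate 4 had 488 normalized counts while the remaining OGTi libraries had 386 to 391, a gap of 0.954 of the range. For SLC1A5, Control replicate 2 had 12949.7 normalized counts while the remaining Control libraries had 10847 to 11107. For NANS, OGTi replicate 2 had 5124 normalized counts while the remaining OGTi libraries had 4032 to 4210.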

How the results depend on the processing

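Of 278 values recomputed under the alternatives, 239 kept their direction and side of the threshold, or moved little. OGT, OGA, GFPT2, NAGK and GNPDA1 kept both under each of the 10 alternatives, with a highest q of 0.00110, 4.58e-08, 3.87e-05, 0.000351 and 0.00627. PGM3 lost its call without the replicate block in DESeq2 (log2 fold change 0.24, q of 0.0701) and in edgeR (0.24, q of 0.0724), and ranged from 0.20 to 0.27 when a replicate was left out (q of 0.0397 to 0.133). GNPDA2 lost its call without replicate 4 (0.40 in a range of 0.40 to 0.63). The uncalled members GFPT1 and UAP1 changed sign: GFPT1 was 0.01 without replicate 1 and 0.0495 without replicate 3 (range -0.0656 to 0.0495), and UAP1 was -0.0037 without replicate 1 and -0.0215 without replicate 2 (range -0.0215 to 0.0380). In an exact sign-flip test over the pairs, the log2 ratios of OGT to OGA (1.35) and GFPT2 to GFPT1 (1.04) had a p of 0.125, the smallest that 4 pairs allow. They ranged from 1.28 to 1.45 and from 0.876 to 1.12 when a replicate was left out (exact permutation p of 0.1 each time, the smallest possible with 3 against 3). The genes called ranged from 5127 to 5690 without a replicate, against 6541, and the members called from 5 to 7.

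In the amino sugar list, 0 genes were called lower without the block in DESeq2 and in edgeR, 2 in edgeR with the block, and 0 to 1 without a replicate. Without a replicate, 1 to 2 transporters were called higher, 1 to 2 lower, and 6 to 8 glucose and glutamine genes higher and 1 to 2 lower. The replicate block changed no other call of a member. Control levels per kilobase with the union of all exons were 575 for OGT, 436 for OGA, 151 for GFPT2, 55.0 for PGM3, 732 for UAP1, 117 for NAGK, 447 for GNPDA1 and 40.1 for GNPDA2. The cause was not tested where a call was lost. Fits that left out a replicate had fewer libraries, and the part of this was not tested either. Levels with union exons were divided by greater lengths. GNPDA2 had the fewest counts of the members, and the part of depth was not tested.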
